A study of Homo sapiens with 102 samples.

Results

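MT-RNR1 and MT-RNR2 are the genes of the mitochondrial genome that encode the 12S and the 16S ribosomal RNA. Their rows were found by matching Ensembl identifiers to these symbols, and they are 2 of the 24965 genes in the count table. The pair was selected on its level (CPM) and on its ratio to the mitochondrial mRNAs over all libraries, so these values are given as a description and carry no p-value.

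The 12S rRNA is the RNA of the small subunit of the mitochondrial ribosome, and the 16S rRNA is the RNA of the large subunit. This ribosome makes the mitochondrially encoded subunits of the respiratory chain and of ATP synthase. Both rRNAs are transcribed from the same strand as most mitochondrial mRNAs, as part of long precursors that are cut at the tRNAs lying between the genes. Mitochondrial mRNAs mostly end in a poly(A) tail, whereas the rRNAs end in short oligo(A) tails.

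The data were transcript counts from K562 cells, an established line from a chronic myelogenous leukaemia, in which all libraries share the BCR-ABL fusion gene. Cells were enclosed in picolitre droplets with a pair of drug portions, incubated for 12 h and lysed there, and the released RNA was reverse transcribed from barcoded poly-dT primers. Every ordered pair of the solvent DMSO, Imatinib (a BCR-ABL kinase inhibitor), Trametinib (a MEK inhibitor) and YM115 (spelled as in the labels) was tested, which gave 16 pairs in each of 3 runs. The 16 pairs were screened with 2 barcode layouts, called dT and Bio here after the labels, and each layout also had 3 separate DMSO controls, for 102 libraries in all. A pair is written with its first-listed drug in front, so Trametinib_DMSO and DMSO_Trametinib hold the same drugs in exchanged positions. Doses were not in the labels. Each library is a pool of droplets, so fewer cells and less RNA per cell cannot be told apart, and the labels do not say whether the runs came from separate cultures.

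In-screen dT libraries held 127042 to 759756 counts (n = 48). Of the Bio libraries, 44 of 48 reached 1000 detected genes and held 81806 to 780143 counts. The other 4, all Imatinib_Imatinib libraries and run 1 of DMSO_Trametinib, were left out of the comparisons between drugs. The fetal globin gene HBG2, a marker of K562, was counted in 48 of 48 dT and 44 of 44 Bio libraries, whereas the T-cell marker CD3E was counted in 0 libraries of either screen. Of the 8 markers of other cell types in the table, CD3D, also of T cells, was counted most often, in 12 dT and 5 Bio libraries, and the rest in at most 3 libraries of a screen. Their part in the rRNA values was not tested.

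On the GRCh38 build with GENCODE annotation, MT-RNR1 (ENSG00000211459) is a single exon of 954 bases on the plus strand at chrM:648-1601. MT-RNR2 (ENSG00000210082) is a single exon of 1559 bases on the same strand at chrM:1671-3229. Both are rRNA genes with no coding sequence. A made up 33.0% of MT-RNR1 and 35.1% of MT-RNR2. Because cDNA was primed with poly-dT, every run of 6 or more A in the 2 genes is given here with its flanks, in transcript orientation from 5′ to 3′, with the run in capitals. MT-RNR1 holds 1 such run and MT-RNR2 holds 4, 1 of which has 7 A.
MT-RNR1, chrM:973-1018: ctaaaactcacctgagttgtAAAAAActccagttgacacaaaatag
MT-RNR2, chrM:2110-2155: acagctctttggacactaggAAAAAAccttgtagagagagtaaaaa
MT-RNR2, chrM:2131-2176: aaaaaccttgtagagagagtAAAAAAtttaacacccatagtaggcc
MT-RNR2, chrM:2207-2252: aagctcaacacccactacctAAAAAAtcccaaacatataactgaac
MT-RNR2, chrM:2437-2483: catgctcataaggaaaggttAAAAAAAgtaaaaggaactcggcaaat

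The annotated 3′ ends, where an oligo(A) tail would be added, are given next with the last 6 bases in capitals.
MT-RNR1, chrM:1562-1601: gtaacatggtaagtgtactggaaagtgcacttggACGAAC
MT-RNR2, chrM:3190-3229: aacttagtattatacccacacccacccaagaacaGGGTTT
The MT-RNR1 run ends 603 bases before the 3′ end, and the MT-RNR2 runs end between 766 and 1094 bases before it. Neither gene holds AAAAAA in its last 300 bases, read on the transcript strand, while 18.7% of 192779 annotated transcripts of at least that length do. Whether priming took place at these runs was not tested, since the table gives counts per gene only.

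Both rRNAs were present in most in-screen libraries, and the median of the 16S rRNA was well above that of the 12S rRNA. In dT, MT-RNR2 ranged from 299 to 8683 CPM (the counts of a gene relative to the total counts of its library). Its median was 3514 CPM and its mean 3742 ± 2052 (SD, n = 48), and it ranked 35 of 19688 detected genes by mean CPM. MT-RNR1 ranged from 0 to 3937 CPM in the same libraries, around a median of 357 (mean 588 ± 815), and was counted in 47 of 48. In Bio, MT-RNR2 ranged from 0 to 18537 CPM (median 4176, mean 4268 ± 3624, n = 44) and was counted in 42 libraries. MT-RNR1 ranged from 0 to 4320 CPM in Bio (median 309, mean 500 ± 769) and was counted in 33 libraries. The 12S rRNA thus had a median of 10.0% of the rRNA counts in dT, with a range from 0 to 35.1%. In Bio its median share was 8.15% over the 43 libraries with any rRNA count, but the range was 0 to 100%. Some run 1 libraries of Bio had more 12S than 16S rRNA. Among them were Imatinib_Trametinib, at 48.6 against 0 CPM, and Trametinib_Imatinib, at 530 against 135 CPM.

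Levels of different genes were compared per kilobase of gene length. The study made its libraries by a protocol for 3′ ends, and whether counts scaled with gene length was not tested. The 16S rRNA had rank 6 of the 15 mitochondrial rRNAs and mRNAs in both screens, at 2400 ± 1316 CPM per kilobase in dT and 2738 ± 2325 in Bio. The 12S rRNA had rank 10 in both, at 617 ± 854 and 524 ± 806. The highest per kilobase was MT-CO3, a subunit of cytochrome c oxidase, at 16437 ± 5344 in dT and 15916 ± 6632 in Bio. MT-ND1, the complex I subunit gene that lies next to MT-RNR2, stood at 4938 ± 1789 in dT. MT-ND6, the mRNA of the opposite strand, stood at 63.3 ± 147. In the order per kilobase, the gap between each rRNA and its neighbours above and below was smaller than the larger of the 2 SDs. Those neighbours thus did not differ beyond their spread. The order depends on the division by length. By plain mean CPM, MT-CO1 was highest, at 14013 ± 3174 in dT and 13206 ± 4151 in Bio, and MT-CO3 came next, within these SDs. MT-RNR2 then came after MT-CO1, MT-CO3 and MT-ND1 in both screens, at 3742 CPM in dT and 4268 in Bio.

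**Figure D1:**
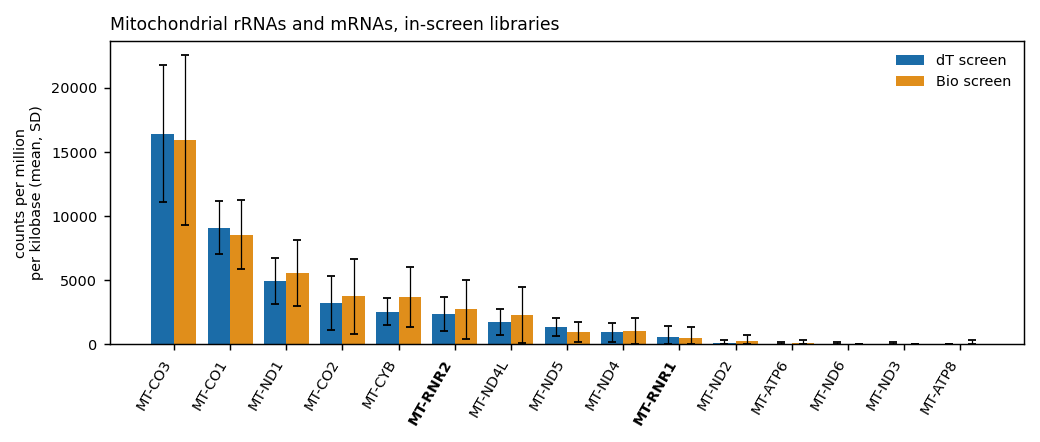
Mean level per kilobase of gene length, in CPM per kilobase, of the 13 mitochondrial mRNAs and the 2 rRNAs (bold) over in-screen libraries with at least 1000 detected genes (48 dT, 44 Bio). Bars give means and error bars 1 SD, cut at 0; MT-RNR2 has rank 6 and MT-RNR1 rank 10 in both screens.

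The level of both rRNAs together was also set against the summed counts of the 13 mitochondrial mRNAs of the same library. This rRNA to mRNA ratio was 0.0109 to 0.255 in dT, around a median of 0.0922 (mean 0.104 ± 0.0583, n = 48). In Bio it was 0 to 0.431, around a median of 0.0971 (mean 0.116 ± 0.101, n = 44). No in-screen library had more rRNA than mRNA counts. The range of the ratio was wider in Bio at both ends.

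Libraries of one ordered pair spread widely between runs, and more so for the 12S than for the 16S rRNA in dT. Around the pair means, the SD of log2 CPM was 1.66 for MT-RNR1 and 0.94 for MT-RNR2 in dT, and 2.82 and 2.83 in Bio. When the pairs were ordered by their median, the ranges of neighbouring pairs overlapped in 15 of 15 cases for MT-RNR2 in both screens, and in 14 of 15 for MT-RNR1 in each.

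**Figure D2:**
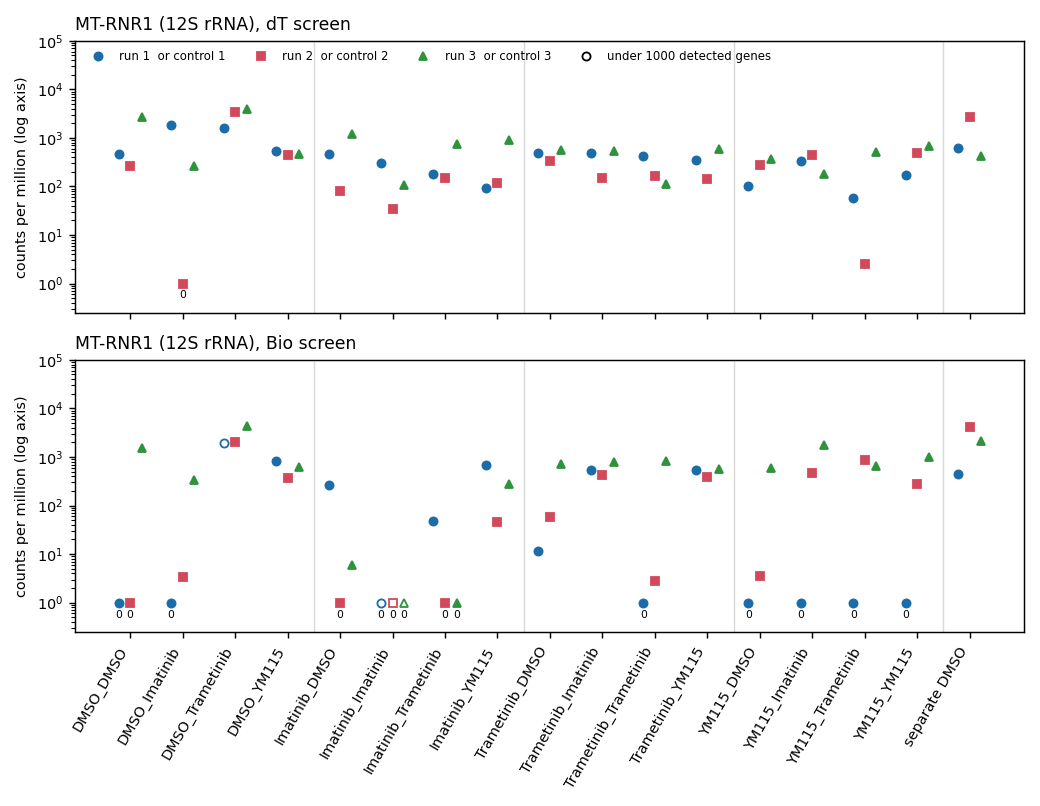
MT-RNR1 level in CPM (log axis) in every library, by ordered drug pair, with the separate DMSO controls at the right; each marker is 1 library, and libraries with 0 counts are drawn at the bottom with a 0. The DMSO_Trametinib libraries lie between 1585 and 3937 in dT and between 1980 and 4320 in Bio.

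One pair stood out for MT-RNR1. DMSO_Trametinib gave 1585, 3378 and 3937 CPM in dT runs 1, 2 and 3, which placed it second, first and first of the 16 pairs of its run. In Bio it gave 1980, 2056 and 4320 CPM and was first in each run, although the run 1 library had only 808 detected genes. The 95% Wilson intervals of these 6 libraries, which cover counting error only, lay between 1426 and 4790 CPM. All other in-screen libraries had a median of 334 CPM in dT (n = 45) and 267 in Bio (n = 45), with highest values of 2673 and 1805, so DMSO_Trametinib overlapped the rest in dT and lay above it in Bio. With the drugs in the exchanged order, Trametinib_DMSO gave 499, 334 and 562.4 CPM in dT and 11.6, 57.3 and 730 CPM in Bio, below DMSO_Trametinib in every run.

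For MT-RNR2 the same pair was high in dT, at 6048, 6256 and 7875 CPM, but not in Bio, at 21.3, 5451 and 5997 CPM. Its rRNA to mRNA ratio reached 0.205, 0.255 and 0.240 in the dT runs, and 0.0638, 0.206 and 0.301 in those of Bio. This pair was singled out after its values were seen. Among 1715 genes tested in both screens, 0.816% had some ordered pair among the 2 highest in each of the 6 runs, and these 14 genes, MT-RNR1 among them, did so for different pairs. Among the others, MT-CO2, a cytochrome c oxidase subunit, was high for DMSO_DMSO, and MT-ND4, a complex I subunit, for Imatinib_DMSO.

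In dT, libraries with DMSO listed first were shallower than the rest, at 127042 to 270885 counts against 259662 to 759756. MT-RNR1 averaged 1323 ± 1352 CPM over the 12 libraries with DMSO first in dT, and 774 ± 886 over 9 of them when DMSO_Trametinib was left out. Over the 36 libraries with another drug first it averaged 344 ± 265 CPM. In Bio, first-listed DMSO without DMSO_Trametinib gave 414 ± 523 CPM (n = 9) and another first-listed drug 361 ± 416 (n = 33). The part of depth and of barcode position in the DMSO_Trametinib values was not tested.

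The runs differed for the 16S rRNA in both screens. In dT, median MT-RNR2 was 2307 CPM in run 1, 2947 in run 2 and 5303 in run 3, and run 3 was above run 1 in 15 of 16 pairs. Total counts were higher in run 3 than in run 1 in 8 of 16 pairs, and the mitochondrial mRNAs in 12 of 16. In Bio, median MT-RNR2 was 1032 CPM in run 1, 4961 in run 2 and 4798 in run 3, and run 3 was above run 1 in 14 of 14 pairs; there, total counts were lower in run 3 in all 14. Median ratios of runs 1, 2 and 3 stood at 0.0632, 0.0862 and 0.141 in dT and at 0.0311, 0.109 and 0.118 for Bio. MT-RNR1 had no count in 7 of 14 run 1 libraries of Bio, against 3 of 15 in run 2 and 1 of 15 in run 3. Run accounted for 25.1% of the variance of the log2 ratio in dT and 32.7% in Bio, and the ordered pair for 34.1% and 26.7%. These shares are not adjusted for the number of groups, which in dT was 3 runs but 16 ordered pairs. A factor with more groups takes up more variance by arithmetic alone, so the shares of run and pair cannot be compared directly.

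**Figure D3:**
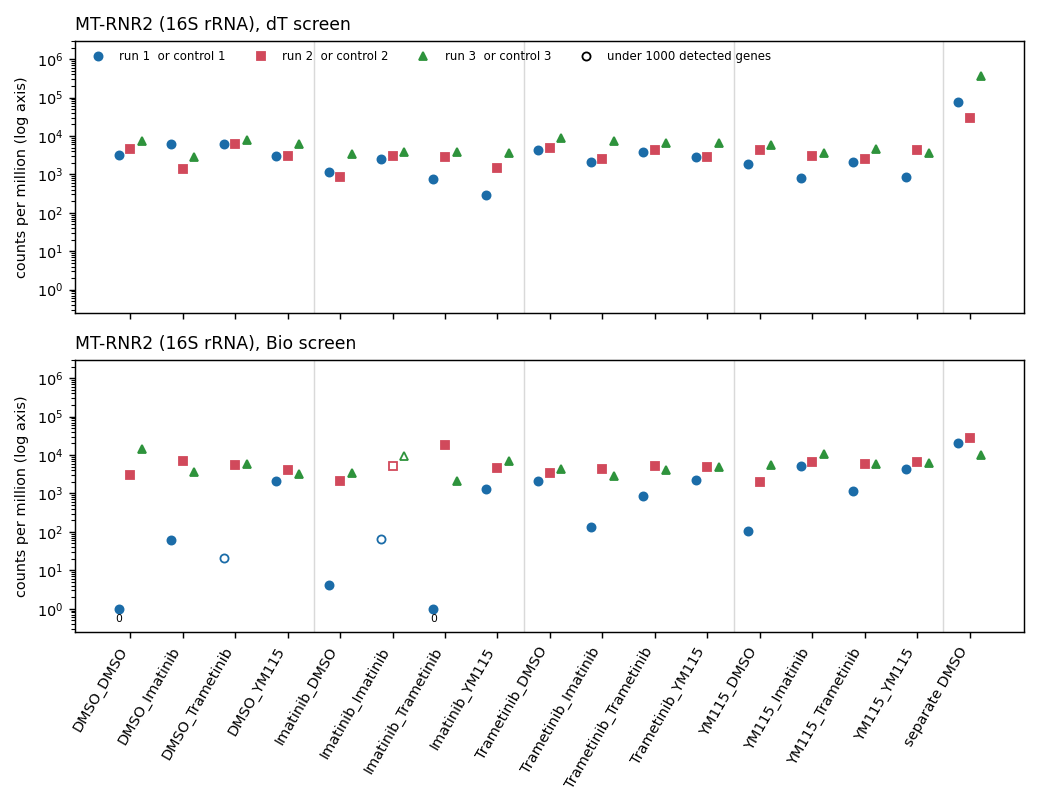
MT-RNR2 level in CPM (log axis) in every library, by ordered drug pair, with the separate DMSO controls at the right; each marker is 1 library. The dT libraries lie between 299 and 8683, whereas several run 1 libraries of Bio lie near the bottom, 2 of them at 0, and the dT separate controls lie between 30066 and 357616.

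The solvent libraries within the screen give the baseline for the drugs. In dT DMSO_DMSO, MT-RNR1 was 460, 270 and 2673 CPM and MT-RNR2 was 3182, 4525 and 7261 CPM in runs 1, 2 and 3. In Bio DMSO_DMSO, MT-RNR1 was 0, 0 and 1540 CPM and MT-RNR2 was 0, 3061 and 14620 CPM. A count of 0 in the Bio run 1 library, as in any library, allows up to 3 counts. Solvent ratios were 0.0673, 0.0919 and 0.157 in dT. Those of Bio were 0, 0.0486 and 0.346. In CPM, the solvent libraries of Bio spanned a wider range than those of dT for MT-RNR2 and a narrower one for MT-RNR1.

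Each drug was then compared over all libraries that held it in either position against all that did not, with run as a term. Libraries with Imatinib had less 16S rRNA in dT. There, MT-RNR2 ranged from 299 to 7243 CPM with Imatinib (median 2769, mean 2716 ± 1732, n = 21) and from 830 to 8683 CPM without it (median 4332, mean 4539 ± 1948, n = 27). The groups overlapped, but the mean was lower with Imatinib in each run, at 1960 against 3121 CPM in run 1, 2150 against 4109 in run 2 and 4038 against 6388 in run 3. The fitted log2 difference was -0.84 (SE 0.20). For this and every other level fitted in edgeR, the SE was derived from the test statistic and is approximate. Leaving out 1 run at a time moved it between -1.04 and -0.74.

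Mitochondrial mRNA levels of the dT libraries were close with and without Imatinib, at 40093 ± 7735 and 42239 ± 9163 CPM. Among the 11 mRNAs with enough counts to be fitted, the median log2 difference was 0.02, with MT-ND1 at 0.21 (SE 0.11) and MT-CO3 at 0.04 (SE 0.09). Some mRNAs were lower with Imatinib, among them MT-CO2 at -0.77 (SE 0.23), close to the value of MT-RNR2, MT-CYB at -0.41 (SE 0.17) and MT-CO1 at -0.32 (SE 0.09). The rRNA to mRNA ratio was 0.0795 ± 0.0522 with Imatinib and 0.124 ± 0.0562 without it, lower in 3 of 3 runs. Its log2 difference was -0.85 (SE 0.24). For the sparser MT-RNR1 the log2 difference in level was -0.93 (SE 0.53), but the mean was higher with Imatinib in 1 of 3 runs, and without the DMSO_Trametinib libraries the difference was -0.43 (SE 0.47).

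In Bio, the libraries spread widely, and the fitted differences with Imatinib were smaller than their SEs. MT-RNR2 averaged 4405 ± 4579 CPM with Imatinib (n = 18) and 4173 ± 2882 CPM without it (n = 26), with a log2 difference of -0.04 (SE 0.54). The corresponding log2 difference of the ratio was 0.32 (SE 0.56). Both groups spanned nearly the whole range, from 0 to 18537 CPM with Imatinib and from 0 to 14620 CPM without. The difference between the screens was not tested.

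**Figure D4:**
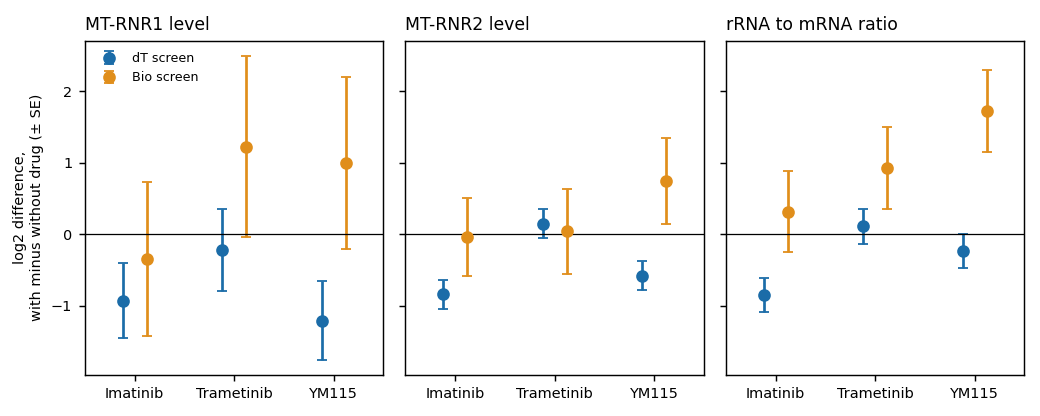
Fitted log2 differences, with minus without each drug, for the level of MT-RNR1, the level of MT-RNR2 and the rRNA to mRNA ratio; points are estimates over in-screen libraries (48 dT, 44 Bio) with run as a term and error bars are 1 SE. In dT, Imatinib lies at -0.84 for MT-RNR2 and -0.85 for the ratio, and the Bio error bars are wider throughout.

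Libraries with YM115 had less of both rRNAs in dT, and also less mitochondrial mRNA. MT-RNR2 ranged from 299 to 6578 CPM with YM115 (median 3056, mean 3224 ± 1727, n = 21) and from 740 to 8683 CPM without it (median 3722, mean 4144 ± 2221, n = 27), with the lower mean on the YM115 side in each run. The log2 difference was -0.58 (SE 0.21) for MT-RNR2 and -1.21 (SE 0.55) for MT-RNR1. Leaving out run 1 left MT-RNR2 at -0.26, and without DMSO_Trametinib MT-RNR1 stood at -0.63 (SE 0.50). Mitochondrial mRNAs summed to 34780 ± 4411 CPM with YM115 and 46370 ± 7489 CPM without, and 9 of 11 fitted mRNAs had a negative log2 difference. The ratio was close in the 2 sets, at 0.101 ± 0.0491 and 0.107 ± 0.0654, with a log2 difference of -0.23 (SE 0.24).

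In Bio, YM115 libraries had the higher ratio, with a median of 0.121 (0.00355 to 0.431, n = 21) against 0.0689 (0 to 0.399, n = 23). The mean ratio was higher with YM115 in 2 of 3 runs, and lower in run 2, at 0.115 against 0.133. The log2 difference was 1.72 (SE 0.57), and 1.47 (SE 0.50) with 3 in place of 0.5 counts added to each sum. It was 0.48 (SE 0.40) without run 1. In that run, MT-RNR2 averaged 2367 ± 1834 CPM in the 7 libraries with YM115 and 461 ± 809 CPM in the 7 without it. With the counts of all libraries of a set summed before the ratio was taken, the log2 difference was 0.54. The fitted level of MT-RNR2 differed by 0.74 (SE 0.60) on the log2 scale, and that of MT-RNR1 by 1.00 (SE 1.20).

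Trametinib was near 0 for the fitted levels of the 16S rRNA in both screens, with log2 differences of 0.15 (SE 0.20) in dT and 0.04 (SE 0.60) in Bio. The plain means of MT-RNR2 in dT were 4460 ± 2157 CPM with Trametinib (n = 21) and 3183 ± 1815 CPM without it (n = 27), and higher with Trametinib in 3 of 3 runs; these means, unlike the fit, do not account for the other drugs in the pairs. For MT-RNR1 the log2 difference was -0.22 (SE 0.58) in dT and -0.68 (SE 0.49) without DMSO_Trametinib. In Bio it was 1.23 (SE 1.27), and 0.87 (SE 1.11) without that pair. The ratio had a log2 difference of 0.11 (SE 0.24) in dT and 0.93 (SE 0.57) in Bio. The plain means of Bio were 0.114 with Trametinib and 0.117 without it, higher with Trametinib in 1 of 3 runs. The log2 difference there was -0.19 from summed counts and 0.32 without run 1.

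The median of all fitted genes was itself off 0, at 0.21 for YM115 in dT and 0.53 for YM115 in Bio, and it moved to 0.02 and 0.22 when libraries were scaled by DESeq2 size factors. Relative to that median, MT-RNR2 differed in dT by -0.91 with Imatinib and -0.79 with YM115, and by -0.89 and -0.83 under the other scaling. Relative to the median in Bio, MT-RNR2 stood at 0.22 with YM115 under both scalings.

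**Figure D5:**
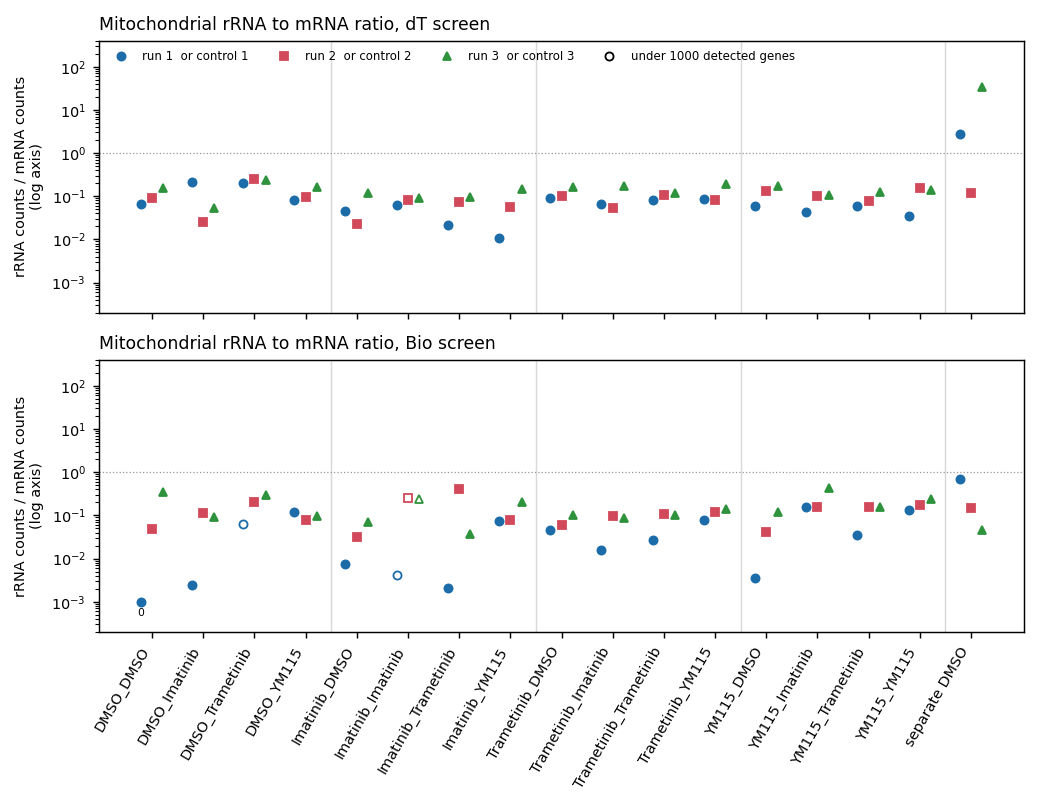
Ratio of summed MT-RNR1 and MT-RNR2 counts to the summed counts of the 13 mitochondrial mRNAs (log axis) in every library, by ordered drug pair, with the separate DMSO controls at the right; the dotted line marks equal counts. All in-screen libraries lie under the line, and 2 of the 3 dT separate controls lie above it.

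The separate DMSO controls had far more 16S rRNA in dT, and they differed strongly among themselves. MT-RNR2 was 74501, 30066 and 357616 CPM in dT controls 1, 2 and 3, all above the 3 in-screen DMSO_DMSO libraries of dT. In control 3 this single gene held 35.8% of all counts. The highest in-screen value of any dT pair was 8683 CPM. MT-RNR1 was 618, 2665 and 414 CPM in these controls, which overlapped the in-screen 270 to 2673 CPM. The rRNA to mRNA ratio of the 3 controls was 2.81, 0.118 and 34.2. Control 2 had a ratio inside the in-screen range, and mRNAs at 277378 CPM. Controls 1 and 3 had mRNAs at 26722 and 10481 CPM. The 12S rRNA was 0.822%, 8.14% and 0.116% of the rRNA counts.

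The fitted log2 difference, separate minus in-screen DMSO_DMSO, was 5.25 (SE 0.56) for MT-RNR2 and 1.44 (SE 1.34) for MT-RNR1 in dT. Without control 2 and run 2, the value for MT-RNR1 was -0.91 (SE 1.59). Without the run as a replicate block it was 0.50 (SE 1.32), and MT-RNR2 stood at 5.66 (SE 0.80). With DESeq2 size factors MT-RNR2 stood at 4.11, and with 1 control and run left out in turn between 4.2 and 5.7. Of 6917 genes tested in dT, 24.6% were higher in all 3 separate controls than in all 3 in-screen libraries. These controls also had 7410 to 10361 detected genes, against 1837 to 5110 in the in-screen libraries. Mitochondrial counts made up 10.2% to 36.9% of the dT controls and 5.10% to 28.1% of those of Bio, so 4 of these 6 libraries exceed the 15% limit that the study set.

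In Bio the separate controls overlapped the in-screen solvent libraries for both rRNAs. Of 6158 genes tested there, 29.1% were higher in all 3 separate controls. MT-RNR2 was 20536, 28104 and 10247 CPM in Bio controls 1, 2 and 3, against 0, 3061 and 14620 CPM in the screen. MT-RNR1 was 448, 4052 and 2090 CPM, against 0, 0 and 1540 CPM. The ratio was 0.700, 0.148 and 0.0460, on both sides of the in-screen median of 0.0971. These 3 libraries were shallow, with 35742 to 89347 counts. Log2 differences were 3.04 (SE 1.08) for MT-RNR2 and 4.77 (SE 2.63) for MT-RNR1, and with 1 control and run left out in turn they ranged from 1.64 to 5.90 and from 3.33 to 11.91. With DESeq2 size factors they were 1.31 and 3.23, and without the run as a replicate block 1.89 and 2.42.

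The genes whose pattern was most like the rRNAs were sought over the 48 dT libraries, among 557 genes counted in at least 90% of them, with run means removed. The nearest to each rRNA was the other one, with Spearman's rho of 0.578, but rho was 0.125 over the 44 Bio libraries. After it, MT-RNR1 was most like LINC01588 (0.467, and -0.008 in Bio) and METRN (0.438, and 0.421 in Bio). MT-RNR2 was most like the ferritin light chain pseudogene FTLP3 (0.546, and -0.098 in Bio) and MT-CO1 (0.512, and 0.214 in Bio). These values share libraries, depth and total counts, and of these genes METRN alone had a rho above 0.4 in both screens.

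The transfer RNAs that flank the rRNAs in the precursor were nearly without counts. MT-TF before MT-RNR1, MT-TV between the 2 rRNAs and MT-TL1 after MT-RNR2 had 44, 11 and 62 counts over all 48 dT libraries. The highest of the 14 mitochondrial tRNAs in the table was MT-TY, with 1171 counts in dT. Of 13 nuclear MTRNR2L genes, which resemble MT-RNR2, 0 are in the count table, so they could not be analysed. Reads shared with such copies remain an uncertainty of the MT-RNR2 count.

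Nuclear genes that make, process, modify or stabilise the mitochondrial rRNAs were mostly too sparse to test. Of 49 such factors, 15 passed the filter on low counts in dT and 6 in Bio. The test was the quasi-likelihood test of edgeR, adjusted after Benjamini-Hochberg over all genes tested, which called 2.88%, 1.37% and 2.62% of 3930 dT genes for Imatinib, Trametinib and YM115, and 2.34%, 1.94% and 2.74% of 1754 Bio genes. In dT it called 0 of the 15 factors for Imatinib, 0 for Trametinib and 1 for YM115. In Bio it called 1 of 6 for Imatinib and 0 for each of the others. Factors with an unadjusted p under 0.05 numbered 1, 2 and 2 in dT, whereas Bio had 1, 0 and 1. Over all genes that level was reached by 546, 497 and 561 of the 3930 in dT, and by 263, 218 and 280 of the 1754 in Bio. With so few factors tested, 1 call is not a result about the group.

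The factor called for YM115 in dT was MALSU1, which takes part in assembly of the large mitoribosomal subunit. It had 634 counts in 7 of 21 libraries with YM115 and 3 counts in 3 of 27 libraries without it. That is a ratio of 224 between the summed shares, with a 95% exact interval of 76.3 to 1089 for counting error only. Its mean was higher with YM115 in 3 of 3 runs, and its adjusted p was 0.000244 by edgeR's quasi-likelihood test and 0.137 by DESeq2. In Bio it was counted in 1 library and was not tested.

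RPUSD3, a pseudouridine synthase family protein needed for the 16S rRNA, was the factor called for Imatinib in Bio. It was counted in 10 of 18 libraries with Imatinib (237 ± 425 CPM) and in 6 of 26 without it (34.1 ± 92.1 CPM). Its summed shares had a ratio of 9.61 (8.28 to 11.2 by the same interval). The fitted log2 difference was 5.72 (SE 1.59), above the log of that ratio, with an adjusted p of 0.0451 by edgeR's quasi-likelihood test and 0.447 by the same test without run as a replicate block. In dT, where it was counted in 34 of 48 libraries, the log2 difference for Imatinib was -0.22 (SE 1.09), with an adjusted p of 0.970 in edgeR. Other factors did not pass the test. POLRMT, the mitochondrial RNA polymerase, had log2 differences of 0.15, -1.05 and -0.89 in dT for Imatinib, Trametinib and YM115, and 5.45 (SE 1.69) for YM115 in Bio, with an adjusted p of 0.0715 in edgeR, and 2.90 (SE 1.68) for Trametinib there. The rRNA chaperone ERAL1 had 0.83, 0.79 and 0.65 in dT, and 0.18, -1.90 and -0.92 in Bio.

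Proteins of the mitochondrial ribosome were better covered, with 47 of 82 tested in dT and 24 in Bio. In dT, 0 were called for Imatinib, 1 for Trametinib and 0 for YM115, with 5, 2 and 6 at an unadjusted p under 0.05 in edgeR, beside the 546, 497 and 561 of 3930 genes. In Bio, 0 were called for any drug, with 0, 4 and 3 at that unadjusted level; DESeq2 counts over both groups of genes are given with the alternatives. The median log2 difference in dT was 0.24, 0.17 and 0.57 for Imatinib, Trametinib and YM115, beside 0.07, 0.23 and 0.21 over all genes tested. With YM115, 36 of the 47 had a positive difference, in a fit where the median of all genes was also above 0. The share of positive differences over all genes was not counted. None of these medians is a test.

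MRPS21, a protein of the small subunit, was the gene called for Trametinib in dT. It was counted in 10 of 21 libraries with Trametinib (80.4 ± 132 CPM) and in 6 of 27 without it (17.4 ± 78.1 CPM). The ratio of the summed shares was 3.98 (3.36 to 4.73, 95% exact interval for counting error). The fitted log2 difference was 6.10 (SE 1.67), above the log of that ratio, with an adjusted p of 0.0483 by edgeR's quasi-likelihood test and 0.464 by that test without run as a replicate block. Well-covered members had small differences: the large-subunit protein gene GADD45GIP1 was counted in all 48 dT libraries and differed by 0.50 (SE 0.25), 0.25 (SE 0.25) and 0.57 (SE 0.25) on the log2 scale for Imatinib, Trametinib and YM115. AURKAIP1, of the small subunit, differed by 0.03 (SE 0.26), 0.17 (SE 0.26) and 0.47 (SE 0.26). Neither passed the test for any drug in dT. For Imatinib in dT, where the 16S rRNA was lower, none of the 62 tested ribosomal protein and rRNA factor genes was called by edgeR, with 6 at an unadjusted p under 0.05; DESeq2 called 1.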

How the data were processed

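The authors deposited raw counts per gene for every library in 1 table, which holds 102 libraries and 0 columns of other samples. The submitters' processing notes name STAR 2.4.2a and GRCh38; the annotation release and the strand setting of counting are not given in the sources used here. Symbols came from a name table (24539 of 24965 identifiers), and positions and sequences from GENCODE release 29 transcripts. CPM used all counts of a library as the total. The study's limit of 15% mitochondrial counts was not applied, as it acts on the genes described; 0 of the libraries used in the drug comparisons exceed it, and 4 of the 6 separate controls do.

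Drug effects were fitted in edgeR 4.0.16 (R 4.3.3; quasi-likelihood, TMM scaling, filterByExpr) as 3 drug terms plus run, for each screen separately. The SE of an edgeR level was taken as the absolute log2 difference divided by the square root of the F statistic. It is rough for sparse genes and need not match the p-value. For MALSU1 in dT it was 0.13, 3.46 and 0.96 for Imatinib, Trametinib and YM115. The log2 ratio was fitted by least squares with the same terms and a prior count of 0.5, and its SE came from that fit. The run term follows the run numbers in the labels, which mark shared runs; the separate controls carry only a number, which the series' design text ties to a replicate. Deviations from the pair means correlated between libraries of 1 run by 0.0244 on average in dT and 0.027 in Bio, and by -0.0122 and -0.0135 between runs. Deviations from a mean over 3 runs sum to 0, so the values between runs follow from those within runs and are not a separate observation. DESeq2 1.42.0 was an alternative. Separate controls were fitted with all libraries of their screen. The fits were also run on simulated counts with the same spread for all genes and no run effect. That check does not cover the spread between runs seen in these libraries. No 2 replicate libraries were identical (102 pairs compared; chi-square per degree of freedom of at least 3.33).

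The members and gene lists were chosen with earlier results of these data known. Named genes were the rRNAs, MT-ND1, MT-ND6 and the most abundant mitochondrial mRNA, the nuclear list genes past an adjusted p of 0.05 or with the 2 highest means in dT, and the 3 most similar genes for each rRNA. MT-CO1, MT-CO2, MT-CYB, MT-ND4, the marker CD3D, the DMSO_Trametinib pair and the alternatives that leave it out or use a prior count of 3 were chosen after the values were seen. P-values measure only the spread between these libraries.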

Additional observations from a re-analysis of the deposited data

Results flagged for a closer look

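One value lay outside the comparisons and above its control. The run 1 library of DMSO_Trametinib in Bio, left out because it had 808 detected genes, held 1980 CPM of MT-RNR1, above the highest in-screen DMSO_DMSO library of Bio at 1540 CPM. That is 186 of 93932 counts. The same library held 21.3 CPM of MT-RNR2, or 2 counts.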

How the results depend on the processing

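The alternative values of the drug differences in level and ratio all moved by less than the SD between single libraries of a pair. That SD is a wide bar for a fitted mean. For the separate controls against in-screen DMSO_DMSO, 2 alternatives moved by more than the SD within these groups and 22 by less. The sign of the drug differences was not kept throughout in either screen. In dT, MT-RNR1 with Trametinib ranged from -0.68 to 1.10 (the same sign in 8 of 10 alternatives), the ratio with YM115 from -0.45 to 0.19 (11 of 13) and the ratio with Trametinib from -0.26 to 0.73 (12 of 13). In dT, MT-RNR2 with Imatinib stayed between -1.04 and -0.74 over 10 alternatives, and the ratio between -1.04 and -0.62 over 13. For YM115 in dT, MT-RNR2 lay between -0.82 and -0.25. In Bio, MT-RNR2 lay between -0.70 and 0.43 with Imatinib, -0.30 and 0.75 with Trametinib and 0.04 and 1.56 with YM115. Leaving out 1 control and run in turn gave -0.91 to 2.93 for MT-RNR1 of dT, and 3.33 to 11.91 for Bio, separate minus in-screen.

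Calls among the tested nuclear genes of both groups for Imatinib, Trametinib and YM115 were 0, 1 and 1 in dT; Bio had 1, 0 and 0. With no filter on low counts dT had 3, 3 and 4 calls, and Bio had 3, 3 and 2. With DESeq2's test dT had 1, 0 and 1, and Bio had 3, 2 and 3. With no replicate block, that is without the run pairing, the counts were 0 for each drug in dT and in Bio, and fewer genes passed the filter (51 and 25). With single-drug conditions only they were 0 for Trametinib and YM115 in dT and 0 for Imatinib in Bio. Keeping every in-screen library gave 2 for Imatinib and 2 for YM115 in Bio. Leaving out 1 run in turn gave 0 to 1 for Trametinib and 1 to 2 for YM115 in dT, and 0 to 1 for Imatinib in Bio. The cause of these moves was not tested. MALSU1 was called in 4 of the 5 alternatives that tested it, MRPS21 in 4 of 7 and RPUSD3 in 5 of 9, with adjusted p-values up to 0.137, 0.689 and 0.564. MT-RNR1 had a median of 114 counts per dT library.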
